A study of Mus musculus with 20 samples.

Results

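Type I interferon-stimulated genes are the genes that cells transcribe when interferon alpha or beta reaches them. The set described here held 44 genes chosen by symbol, and all 44 were among the 14793 genes measured in mouse knee joints. As background, type I interferons bind the IFNAR receptor, whose kinases JAK1 and TYK2 phosphorylate STAT2. This protein acts with IRF9 in a complex that binds interferon-stimulated response elements in promoters, and the induced proteins sense foreign nucleic acid, block viral replication or feed back on the pathway. Many of the same genes also respond to interferon gamma or directly to IRF3, and in synovial tissue they are best known as the interferon signature of inflammatory arthritis.

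RNA was sequenced from whole right knees of male C57BL/6Nci mice. Surgical destabilization of the medial meniscus (DMM) had been performed at 12 weeks of age to start osteoarthritis. The 4 groups of 5 joints, each group drawn from 10 mice, differed in what entered the joint in weeks 3 and 5 after surgery. In the control group a needle was inserted with nothing injected. The remaining mice were given mesenchymal stromal cells (MSC) from mouse fat, cultured from 1 donor pool. These cells were either not activated (MSC), activated with pIC, an agonist of the RNA sensor TLR3 (TLR3-MSC), or activated with 2′,3′ c-GAMP, the ligand of the DNA-sensing adaptor STING (STING-MSC). No joint without surgery was sequenced, and cartilage, synovium, capsule and adjacent bone were processed as 1 sample. Markers of skeletal muscle, erythroid cells and neutrophils were also abundant, with sums far above those of cartilage markers. The values are therefore averages over all of these tissues and cells. The methods place tissue collection at the end of the experiment and the results text a day after injection, so the interval between treatment and RNA is uncertain.

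Values are normalized counts, reads per gene divided by a factor for the depth of each library. The reads recovered from them numbered between 27955496 and 52529973 per joint, with group medians of 33230113 in control, 42283680 in MSC, 33141873 in TLR3-MSC and 31917015 in STING-MSC joints. The 44 genes were above 0 in each of the 20 joints, so no result below rests on an undetected gene. Per length, Isg15 was the most abundant member at 2061 normalized counts per kb of exon, followed by the antiviral enzyme Rsad2 at 1621 and the virus tether Bst2 at 1376. Ifi44 had the lowest level at 10.8 normalized counts per kb, and the median member, at 136, lay near the median of 132 over 14770 genes with a known length. The members varied somewhat more between joints of a group than most genes did. Their median within-group SD on the log2(normalized count + 1) scale was 0.301, against 0.260 over all genes. Over the 12488 genes with a mean in the range of the members it was 0.233. Among the members, the within-group SD was smallest for the kinase Eif2ak2 (0.16) and largest for Mx2 (0.64).

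Before the groups are compared, a few joints stood apart. STING-MSC joint 3 held the highest value of 20 of the 44 members, whereas 2.45% of all genes peaked there, and TLR3-MSC joint 1 held the highest value of 13 members against 8.48% of all genes. At the other end, MSC joint 5 had the lowest value of 14 members (15.5% of all genes) and MSC joint 2 of 10 members (5.07% of all genes). MSC joint 5 also had 296 genes at 0, 239 of them at 0 in that joint alone, against 97 in STING-MSC joint 5 and at most 42 in any other joint, and it enters every comparison with MSC joints below. The part of this in the member values was not tested. Averaged over the 44 genes on the log2(normalized count + 1) scale, these joints stood at 9.85 for STING-MSC 3, 9.80 for TLR3-MSC 1, 9.01 for MSC 5 and 9.02 for MSC 2, and MSC joint 1 was also high at 9.70. The group means of that average were 9.30 ± 0.14 in control, 9.31 ± 0.29 in MSC, 9.44 ± 0.23 in TLR3-MSC and 9.44 ± 0.24 in STING-MSC joints (SD, n = 5), so the groups overlapped widely and the control joints were the most alike.

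**Figure D1:**
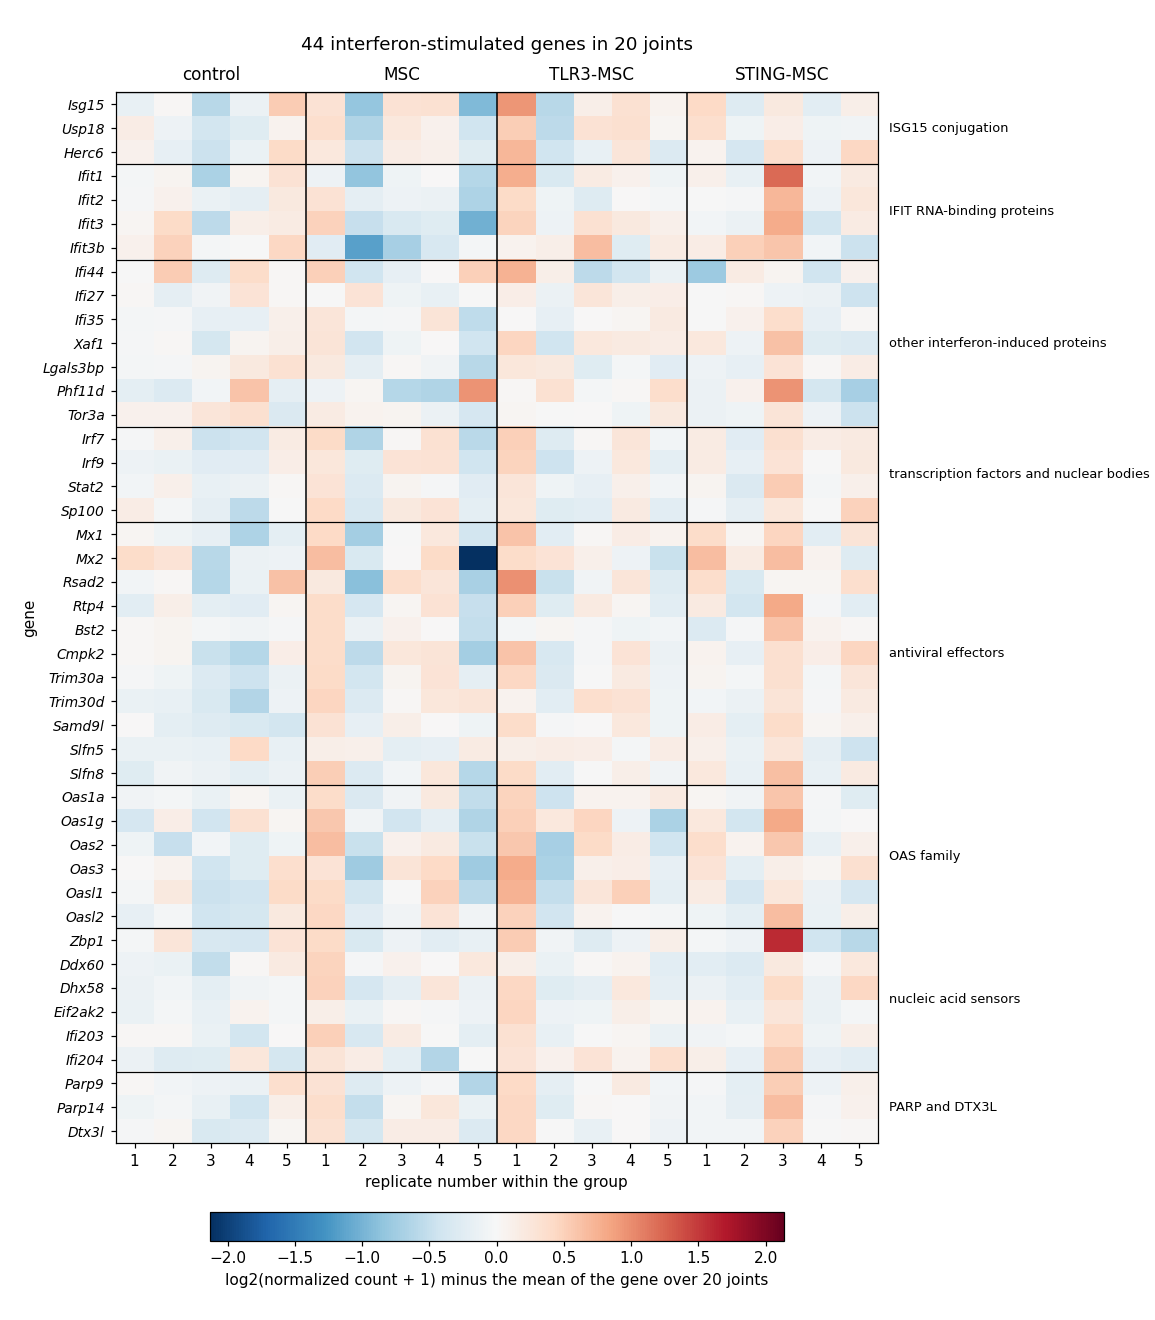
Each of the 44 genes (rows, ordered by role) in each of the 20 joints (columns), coloured by log2(normalized count + 1) minus the mean of that gene over the 20 joints. The red columns of STING-MSC joint 3 and TLR3-MSC joint 1 and the blue columns of MSC joints 2 and 5 run across most roles.

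MSC were injected suspended in buffered saline and control joints had a needle alone, so cells and injected fluid cannot be told apart in any comparison with control joints. In MSC against control joints, the IFIT genes, which encode RNA-binding antiviral proteins, had log2 fold changes below 0 (4 of 4, with Ifit3b alone at an unadjusted p of at most 0.05), whereas Trim30d and Samd9l were higher at that p, and 26 of the 44 members (59.1%, against 42.3% of all genes) had a log2 fold change above 0. The median member log2 fold change was 0.03, against -0.04 over all genes. With genes called at a Benjamini-Hochberg false discovery rate (FDR) of at most 0.05, limma called 0 of the 44 members and 1 of 14793 genes (0.00676%), Dhrs9, which is not a member and is named because it was called. Testing on recovered reads, edgeR and DESeq2 also called 0 members, and 0.101% and 0.730% of all genes. At an unadjusted p of at most 0.05, limma found 2 members higher, Trim30d and Samd9l (all genes: 5.64%), and 1 lower, Ifit3b (all genes: 2.91%), and edgeR and DESeq2 each found 3 members. Groups that did not overlap were found for 0 of 44 members (all genes: 1.11%). Leaving out MSC joint 2 gave 5 members in place of 3, and the small median turned or moved with many single joints. It was -0.05 without MSC joint 1 (12 members above 0), -0.03 without control joint 3 (20 above) and -0.01 without MSC joint 4 (20 above). It was 0.11 without MSC joint 5 (31 above), 0.08 without MSC joint 2 (32 above), 0.05 without control joint 5 (29 above), 0.02 without MSC joint 3 (26 above) and 0.01 without control joint 4 (23 above). Quantile normalization gave 0.08 with 32 members above 0, and edgeR 0.06 with 30. Among all genes at that unadjusted p, 835 were higher and 430 lower, which became 1014 and 263 after quantile normalization, 1040 and 269 in edgeR, 639 and 269 with the 2 groups alone, and 1235 and 791 without MSC joint 5 and STING-MSC joint 5, an alternative chosen after seeing the data.

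In TLR3-MSC against control joints, 39 of the 44 members (88.6%, against 47.9% of all genes) had a log2 fold change above 0, with a median of 0.14 against -0.01 over all genes. All 6 members of the OAS family and all 6 nucleic acid sensors were on the higher side, and 5 and 4 of them without TLR3-MSC joint 1. By limma, 0 of 44 members passed the FDR threshold (all genes: 0%), and edgeR and DESeq2 called 0 members too, with 0% and 0.0203% of all genes. Without adjustment, at p of at most 0.05, 3 members were higher, Samd9l, Trim30d and Ifi204 (all genes: 2.68%), and 0 were lower (all genes: 0.906%), with 3 in edgeR and 3 in DESeq2. The groups overlapped for every member (0 of 44 apart, all genes: 0.825%). Without TLR3-MSC joint 1, 28 members were above 0 and the median was 0.05, and without control joint 3, 33 were above 0 with a median of 0.08. Leaving out TLR3-MSC joint 3 brought the 3 members at unadjusted p to 1.

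STING-MSC against control joints had 36 of 44 members above 0 (81.8%, against 51.7% of all genes), with a median of 0.16 against 0.01 over all genes. Of the antiviral effectors 10 of 11 were above 0, 2 of them at unadjusted p, with a median log2 fold change of 0.30 that was 0.19 without STING-MSC joint 3 (8 of 11 above 0), while 5 of 7 other interferon-induced proteins were below 0 (4 of 7 after quantile normalization, in edgeR and in DESeq2). In limma, 0 of 44 members passed the FDR threshold (all genes: 0%), and edgeR and DESeq2 also called 0 members, with 0% and 0.575% of all genes. With p unadjusted and at most 0.05, Samd9l and Trim30d were higher (2 members, all genes: 6.54%) and 0 were lower (all genes: 5.69%), with 1 member in edgeR, 2 in DESeq2 and 5 when the fit held the 2 compared groups alone. Again 0 of 44 members had groups that did not overlap (all genes: 2.17%). The count at unadjusted p was 4 without control joint 1 and 1 without control joint 3, control joint 4 or STING-MSC joint 5. Without STING-MSC joint 3, 27 members were above 0 and the median was 0.06, and without control joint 3, 31 were above 0 with a median of 0.09. Over all genes at unadjusted p, limma had 967 higher and 841 lower, edgeR 830 and 1140, the 2 groups alone 1076 and 1220, and the fit without MSC joint 5 and STING-MSC joint 5 gave 680.0 and 469.

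The activated cells were also set against MSC joints, which differ from them by the activation step. For TLR3-MSC, 35 of 44 members (79.5%, against 57.4% of all genes) were above 0 with a median of 0.11 (all genes: 0.03), and all 4 IFIT genes had log2 fold changes above 0. By limma, 0 members passed the FDR threshold (all genes: 0%), and by edgeR and DESeq2 0 as well, with 0.00676% and 0.0473% of all genes. Ifit3b and Ifit3 were higher at an unadjusted p of at most 0.05 (2 members, all genes: 1.89%), 0 were lower (all genes: 1.99%), and edgeR, DESeq2, quantile normalization and the fit with the 2 groups alone each gave 1 member. Non-overlapping groups numbered 0 of 44 members (all genes: 0.581%). Any of 8 joints left out (MSC 2, 3, 4 or 5, or TLR3-MSC 1, 3, 4 or 5) gave 1 member at unadjusted p. Without MSC joint 5, 22 members were above 0 with a median of 0.002, and without TLR3-MSC joint 1, 24 with a median of 0.02. The median was 0.04 without MSC joint 2 (27 above), 0.18 without MSC joint 1 (41 above) and 0.16 without TLR3-MSC joint 2 (40 above). Of all genes at unadjusted p, 279 were higher and 295 lower, against 156 and 412 after quantile normalization, 129 and 214 with the 2 groups alone, and 473 and 533 without MSC joint 5 and STING-MSC joint 5.

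For STING-MSC against MSC, 37 of 44 members (84.1%, against 55.5% of all genes) were above 0, the median was 0.11 (all genes: 0.02), and all 4 IFIT genes were again above 0. In limma, 0 members passed the FDR threshold (all genes: 0%), and edgeR and DESeq2 called 0, with 0% and 0.189% of all genes. By unadjusted p of at most 0.05, Ifit3b and Ifit1 were higher (2 members, all genes: 2.77%) and 0 were lower (all genes: 2.17%), with 2 members in edgeR, 2 in DESeq2 and 1 after quantile normalization or in the fit with the 2 groups alone. For 0 of 44 members were the groups apart, without overlap (all genes: 1.05%). The count at unadjusted p was 4 without MSC joint 1 and 1 without MSC joint 2, MSC joint 5 or STING-MSC joint 3. Without STING-MSC joint 3, 21 members were above 0 and the median was -0.01. It was 0.04 without MSC joint 5 (29 above), 0.05 without MSC joint 2 (27 above) and 0.20 without MSC joint 1 (38 above), and 0.03 with 30 above when MSC joint 5 and STING-MSC joint 5 were both left out. All genes at unadjusted p split into 410 higher and 321 lower, into 282 and 358 after quantile normalization, into 203 and 514 in edgeR, into 260.0 and 255 with the 2 groups alone, and into 856 and 389 without MSC joint 5 and STING-MSC joint 5.

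Between STING-MSC and TLR3-MSC joints, 28 of 44 members (63.6%, against 55.3% of all genes) were higher in STING-MSC joints, and the median log2 fold change was 0.04 (all genes: 0.02). In limma, 0 members passed the FDR threshold (all genes: 0%), and edgeR and DESeq2 called 0, with 0% and 0.0135% of all genes. At an unadjusted p of at most 0.05, 0 members were higher (all genes: 0.784%) and 1, Ifi27, was lower (all genes: 1.78%), as in edgeR (1) and DESeq2 (1). Here too 0 of 44 members had groups that did not overlap (all genes: 1.35%). Members at unadjusted p numbered 0 without TLR3-MSC joint 1, 3, 4 or 5 or STING-MSC joint 5, and 3 without STING-MSC joint 3. The direction of the list turned with single joints: 9 members were above 0 without STING-MSC joint 3 (median -0.07), 15 without TLR3-MSC joint 2 (median -0.03) and 22 without TLR3-MSC joint 5 (median -0.0003). The median was 0.13 without TLR3-MSC joint 1 (34 above), 0.10 without STING-MSC joint 2 (31 above), 0.02 without TLR3-MSC joint 3 or STING-MSC joint 5 (25 above each) and 0.01 in edgeR (23 above). All genes at unadjusted p split into 116 higher and 264 lower, 162 and 237 after quantile normalization, 68 and 537 in edgeR, 170.0 and 506 in DESeq2, and 159 and 1099 with the 2 groups alone. Without MSC joint 5 and STING-MSC joint 5 the split was near even, with 111 higher.

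A moderated F test asked whether any group differed. By limma, 0 of 44 members passed the FDR threshold (all genes: 0%), and edgeR and DESeq2 called 0 members, with 0.0135% and 0.669% of all genes. At an unadjusted p of at most 0.05 there were 3 members, Ifit3b, Samd9l and Trim30d (all genes: 6.42%), with 3 in edgeR, 3 in DESeq2 and 1 after quantile normalization. The count was 1 without control joint 2, 3 or 4.

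**Figure D2:**
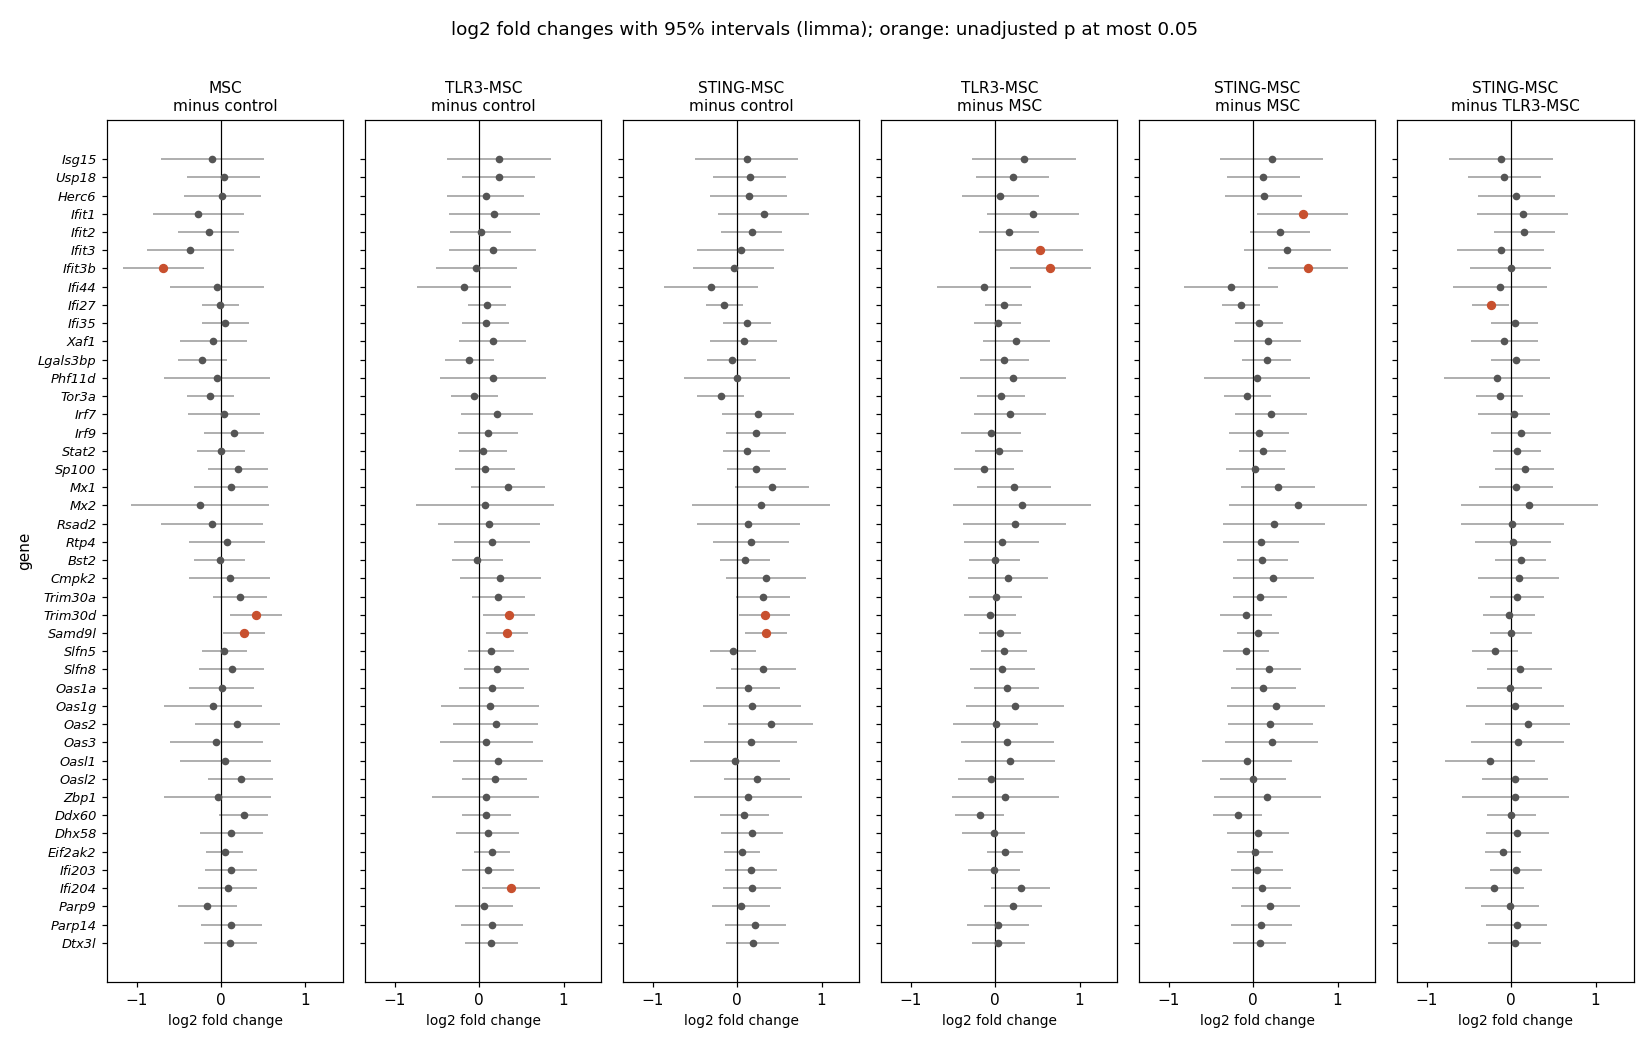
Log2 fold change (horizontal axis, on the log2(normalized count + 1) scale) of each of the 44 genes (vertical axis, by role) in the 6 comparisons, with 95% limma intervals; orange points have an unadjusted p of at most 0.05. Most points of the TLR3-MSC minus control panel lie right of 0 (39 of 44), and all but 3 of its intervals include 0.

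Among the transcription factors, Irf7 encodes the interferon regulatory factor that amplifies interferon production. Its normalized counts were 1389, 1525, 1029, 1073 and 1601 in control joints 1 to 5, 1879, 908, 1449.6, 1781 and 954 in MSC, 2008, 1167, 1439.8, 1690.3 and 1359 in TLR3-MSC, and 1599.7, 1193, 1797, 1577 and 1618 in STING-MSC joints. MSC joints 2 and 5 were the lowest of all and TLR3-MSC joint 1 the highest, with every pair of groups overlapping. The mean was 1323 ± 260.3 in control and 1557 ± 221 in STING-MSC joints (SD, n = 5), a log2 fold change of 0.24 (SE 0.20, limma adjusted p = 0.646) that was 0.16 without control joint 3. Stat2, the STAT protein specific to type I and III interferon signalling, had normalized counts of 1414, 1572, 1316, 1343 and 1495 in control, 1800.1, 1201, 1523, 1437 and 1242 in MSC, 1749.7, 1367, 1294, 1571 and 1412 in TLR3-MSC, and 1519.7, 1183, 2142, 1422 and 1587 in STING-MSC joints. STING-MSC joint 3 was the highest and STING-MSC joint 2 the lowest, so this group spanned all others. The log2 fold change of Stat2 between STING-MSC and control joints was 0.11 (SE 0.13, limma adjusted p = 0.773), but -0.01 without STING-MSC joint 3 and 0.21 without STING-MSC joint 2. Irf9, the DNA-binding partner of STAT2, and Sp100, a nuclear body protein, completed this role, and these 4 genes had median log2 fold changes over control of 0.09 in MSC, 0.09 in TLR3-MSC and 0.22 in STING-MSC joints. None of the 4 was below control in any group, but Stat2 in MSC joints was level with it (log2 fold change 0.0002). In MSC joints 2 of 4 were above control without control joint 3 or 4 or MSC joint 1 or 4, and 3 of 4 without control joint 1 or MSC joint 3, and the median ran from 0.01 to 0.21 over fits without single joints. In TLR3-MSC joints 1 of 4 was above without TLR3-MSC joint 1 (median -0.01) and 3 of 4 without control joint 4, with medians up to 0.17. In STING-MSC joints the median was 0.15 without control joint 4, and 3 of 4 were above without STING-MSC joint 3. Irf9 ranged from 1394 in TLR3-MSC joint 2 to 2641 in TLR3-MSC joint 1, and Sp100 from 2613 in control joint 4 to 5383 in STING-MSC joint 5, in normalized counts. Sp100 was higher by 0.20 and 0.23 in MSC and STING-MSC than in control joints on the log2 scale. In MSC joints this was 0.095 without control joint 4, 0.12 without MSC joint 1 and 0.31 without MSC joint 2, and in STING-MSC joints 0.12 without control joint 4 and 0.13 without STING-MSC joint 5.

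Isg15 encodes a ubiquitin-like protein that is attached to other proteins, Herc6 the mouse ligase that attaches it, and Usp18 the protease that removes it and dampens receptor signalling. Isg15 normalized counts were 1375, 1557, 1019, 1413 and 2227 in control, 1903, 861, 1894, 1920.4 and 799 in MSC, 2937, 1018, 1676, 1922 and 1619 in TLR3-MSC, and 2065, 1268, 1766, 1312 and 1681 in STING-MSC joints. The MSC group fell into 3 joints between 1894 and 1920.4 and 2 below every control joint, and TLR3-MSC joint 1 was the highest. Against control (1518 ± 443), the mean was 1834 ± 700.4 in TLR3-MSC joints (SD, n = 5), a log2 fold change of 0.24 (SE 0.29, limma adjusted p = 1.00). It was 0.05 without TLR3-MSC joint 1, 0.10 without control joint 3, 0.39 without control joint 5 and 0.43 without TLR3-MSC joint 2. Usp18 and Herc6 were likewise highest in TLR3-MSC joint 1, at 389 and 598 normalized counts. All 3 genes were on the higher side in TLR3-MSC and STING-MSC joints against both control and MSC joints, with no log2 fold change above 0.34, but single joints turned several of these small differences. Herc6 in TLR3-MSC joints (0.08 over control, 0.06 over MSC) was at -0.10 and -0.11 without TLR3-MSC joint 1, at -0.02 over control without control joint 3 and at -0.04 over MSC without MSC joint 2. In STING-MSC joints, Isg15 was at -0.02 over control without control joint 3, Usp18 at -0.02 over MSC without MSC joint 2, and Herc6 at -0.02 over MSC without MSC joint 5 and STING-MSC joint 5.

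The IFIT genes lie together on chromosome 19 and encode proteins that bind viral RNA and stop its translation. Ifit3b (chr19:34585370-34590802, GRCm39) had normalized counts of 159, 209, 145, 148 and 202 in control, 126, 66.5, 90.5, 117 and 146 in MSC, 158, 163, 235, 124 and 168 in TLR3-MSC, and 167, 213, 226, 144 and 108.4 in STING-MSC joints. In 4 of 5 MSC joints it was below every control joint, with MSC joint 5 alone inside the control range. The mean was 172 ± 30.7 in control and 109 ± 31 in MSC joints (SD, n = 5), a log2 fold change of -0.69 (SE 0.23, 95% interval -1.17 to -0.21) with a limma adjusted p of 0.340 and an exact two-sided permutation p of 0.0159. The smallest exact p that 5 against 5 joints allow is 0.00794. TLR3-MSC and STING-MSC joints had means of 169.6 ± 40.2 and 172 ± 48.7, near that of control joints. Against MSC joints, both log2 fold changes were 0.65 (SE 0.23), with limma adjusted p of 0.978 and 0.852 and exact permutation p of 0.0238 and 0.0635. In 4 TLR3-MSC and 3 STING-MSC joints Ifit3b was above every MSC joint.

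Ifit3 (chr19:34560931-34566132), its near copy, had normalized counts of 335, 429, 219.9, 352 and 367 in control, 453, 229.8, 259, 270.3 and 158 in MSC, 452, 299, 406, 374 and 350.4 in TLR3-MSC, and 309, 297, 560.0, 247 and 366 in STING-MSC joints. MSC joint 1 had the highest value of its group and MSC joint 5 the lowest of all. The log2 fold change of TLR3-MSC over MSC joints was 0.53 (SE 0.25, limma adjusted p = 0.978, exact permutation p = 0.0873) and 0.35 without MSC joint 5. Its unadjusted p was above 0.05 in 8 of 10 fits without 1 joint. Reads of Ifit3 and Ifit3b may have been split between the copies, so their separate values are uncertain.

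Ifit1, which recognizes the caps and ends of foreign RNA, had normalized counts of 312, 335, 199.8, 336 and 399 in control, 296, 179, 301, 323 and 211 in MSC, 547, 256, 363, 341 and 302 in TLR3-MSC, and 345, 286, 747, 309 and 367 in STING-MSC joints. STING-MSC joint 3 was far above the rest and TLR3-MSC joint 1 next, while the other joints of both groups lay among the controls. STING-MSC exceeded MSC joints by a log2 fold change of 0.59 (SE 0.26, limma adjusted p = 0.938, exact permutation p = 0.0635), which was 0.35 without STING-MSC joint 3. Ifit2 had normalized counts of 573, 625, 533, 509.6 and 678 in control, 722, 514, 540.3, 537 and 368 in MSC, 775, 551, 484, 590.4 and 571 in TLR3-MSC, and 582, 572, 956, 545 and 693 in STING-MSC joints. The same joints were at the top, and MSC joint 5 was the lowest. Its log2 fold change between STING-MSC and MSC joints was 0.32 (SE 0.17, limma adjusted p = 0.938, exact permutation p = 0.151), and 0.18 without STING-MSC joint 3, 0.19 without MSC joint 5 and 0.17 without MSC joint 5 and STING-MSC joint 5. As a role, the IFIT genes had a median log2 fold change of -0.32 in MSC against control joints and of 0.49 in both TLR3-MSC and STING-MSC against MSC joints, and these directions held for 4 of 4 genes after quantile normalization and in edgeR and DESeq2. The median was 0.29 for STING-MSC against MSC without STING-MSC joint 3, and -0.19 for MSC against control without MSC joint 5, with 4 of 4 genes on the same side but Ifit2 there at -0.02. The comparisons share the MSC joints, so they are not independent.

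OAS proteins make a second messenger on double-stranded RNA that activates RNase L, and the OAS-like proteins Oasl1 and Oasl2 are their relatives. All 6 OAS genes were above control in TLR3-MSC joints, with log2 fold changes from 0.09 to 0.23, and 5 of 6 in STING-MSC joints, from -0.02 to 0.40, with the same count in edgeR and DESeq2 and 6 of 6 after quantile normalization. Without TLR3-MSC joint 1, 5 of 6 were above control in TLR3-MSC joints, and without STING-MSC joint 3, 4 of 6 in STING-MSC joints. Oas2 had the largest of these differences from control, in STING-MSC joints. Its means were 281 ± 34.2 in control, 334 ± 114 in MSC, 339 ± 119 in TLR3-MSC and 374 ± 74.6 normalized counts in STING-MSC joints (SD, n = 5). Oas3 ranged from 989 in MSC joint 2 to 2927 in TLR3-MSC joint 1, and Oas1a from 230.0 in MSC joint 5 to 498 in STING-MSC joint 3. Oasl2 ran from 573 in control joint 3 to 1219 in STING-MSC joint 3, Oasl1 from 119 in MSC joint 5 to 297 in TLR3-MSC joint 1, and Oas1g from 27.1 in TLR3-MSC joint 5 to 77.2 in STING-MSC joint 3. Oas1a and Oas1g are closely related, and whether reads were divided between them was not tested.

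The sensors of foreign or misplaced nucleic acid were represented by 6 genes. Ifi204, a DNA sensor of the interferon-inducible p200 family, had normalized counts of 979, 878, 895, 1259 and 826 in control, 1284, 1193, 925, 692 and 1059.6 in MSC, 1301, 1132, 1300.4, 1126 and 1376 in TLR3-MSC, and 1159, 948, 1556, 947 and 912 in STING-MSC joints. The TLR3-MSC joints were tightly grouped, all above every control joint but the fourth. The mean was 1247 ± 112 in TLR3-MSC against 967 ± 172 in control joints (SD, n = 5), a log2 fold change of 0.38 (SE 0.17, limma adjusted p = 1.00, exact permutation p = 0.0238). The unadjusted limma p of this difference was above 0.05 in 6 fits without 1 joint, with log2 fold changes from 0.325 to 0.3615. In 4 such fits it was at most 0.05. Ifi203, of the same family, had means between 1326 ± 156 in control and 1488 ± 239 in STING-MSC joints. Zbp1, which senses Z-form nucleic acid and can trigger cell death, was at 780.0 normalized counts in STING-MSC joint 3 and at 172 in STING-MSC joint 5, the highest and the lowest of the 20 joints. Dhx58 and Ddx60, relatives and cofactors of the RNA sensor RIG-I, were both highest in MSC joint 1, at 542 and 561 normalized counts. Eif2ak2, the kinase that halts translation on double-stranded RNA, varied least, with means between 1019 ± 66.6 and 1142 ± 192.

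Samd9l, a cytosolic restriction factor, averaged higher in all 3 cell-treated groups than in control joints. Its normalized counts were 2961, 2562, 2419, 2349 and 2255 in control, 3659.8, 2606, 3226, 2969 and 2771 in MSC, 3855, 2890.0, 2949, 3434 and 2753 in TLR3-MSC, and 3277, 2553, 3873, 3039.8 and 3187 in STING-MSC joints. Every cell-treated joint was above the median of the control joints, and control joint 1 was the control that overlapped them most. Against the control mean of 2509 ± 276, MSC joints averaged 3046 ± 414, TLR3-MSC joints 3176 ± 458 and STING-MSC joints 3186 ± 475 (SD, n = 5). The log2 fold changes were 0.28, 0.34 and 0.34 (SE 0.12), with limma adjusted p of 0.520, 1.00 and 0.330 and exact permutation p of 0.0317, 0.0317 and 0.0238. These 3 comparisons share the control joints. In MSC against control joints the unadjusted limma p of Samd9l was above 0.05 in 5 fits without 1 joint, with log2 fold changes from 0.2071 to 0.2644. In 5 such fits it was at most 0.05. For TLR3-MSC and STING-MSC against control joints it was at most 0.05 in each of 10 such fits.

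Trim30d and Trim30a belong to a mouse cluster of tripartite motif genes, and Trim30a is known to restrain inflammatory signalling. Trim30d normalized counts were 436, 430.1, 383, 312 and 444 in control, 660.1, 391, 489, 568 and 583 in MSC, 509, 409, 614, 592 and 451 in TLR3-MSC, and 460.2, 440.3, 584, 475 and 548 in STING-MSC joints. In each cell-treated group 4 of 5 joints were above every control joint. In the order MSC, TLR3-MSC and STING-MSC, the log2 fold changes against control were 0.41, 0.35 and 0.32 (SE 0.15). Limma adjusted p was 0.387, 1.00 and 0.388, and exact permutation p was 0.0476, 0.0556 and 0.0159. The unadjusted limma p of Trim30d was at most 0.05 in each of 10 fits without 1 joint for MSC. For TLR3-MSC it was above 0.05 in 3 such fits (log2 fold changes from 0.2673 to 0.2998). For STING-MSC it was above 0.05 in 4 such fits (from 0.2372 to 0.3108) and in 2 fits with other settings (0.2903 and 0.3106). Trim30a had normalized counts of 1389, 1328, 1156, 1042 and 1297 in control, 1861, 1075, 1475, 1727 and 1233 in MSC, 1922, 1133, 1394, 1618 and 1299.8 in TLR3-MSC, and 1469.9, 1372, 1781, 1364 and 1682 in STING-MSC joints. Each STING-MSC joint was above the control median, and 3 were above all controls. Its log2 fold change there was 0.30 (SE 0.15, limma adjusted p = 0.431, exact permutation p = 0.0238). The pair are related in sequence, and whether reads were shared between them was not tested.

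Rsad2, also known as viperin, makes a nucleotide analogue that stops viral polymerases. Its normalized counts were 6420.2, 6782, 4364, 6033 and 10353 in control, 7743, 3599, 8729, 8046 and 4124 in MSC, 13234, 4802, 6387, 7968 and 5559.7 in TLR3-MSC, and 8728, 5372, 6855, 6850.4 and 8559 in STING-MSC joints. TLR3-MSC joint 1 was the highest and MSC joints 2 and 5 the lowest, as for Isg15. No group stood apart, and the log2 fold change of STING-MSC over control joints was 0.13 (SE 0.29, limma adjusted p = 0.890). Without control joint 3 it turned to -0.01, and it was 0.30 without control joint 5, 0.06, 0.24 and 0.07 without STING-MSC joints 1, 2 and 5. Slfn5, a member of the Schlafen family, had normalized counts of 2147, 2128, 2121, 3155 and 2112 in control, 2579.5, 2545, 2034, 2092 and 2646 in MSC, 2571, 2623, 2595, 2294 and 2635 in TLR3-MSC, and 2541, 2141, 2811, 2061 and 1741 in STING-MSC joints. Control joint 4 was far above the other controls and above every joint of the other groups. STING-MSC was lower than TLR3-MSC by a log2 fold change of -0.19 (SE 0.13, limma adjusted p = 0.890, exact permutation p = 0.151), and of -0.10 without STING-MSC joint 5. Among the other effectors, the GTPase Mx1, which is disrupted in most inbred laboratory mice, had means of 166 ± 28.4 in control and 221 ± 41.1 in STING-MSC joints (SD, n = 5). Mx2 ranged from 12.2 normalized counts in MSC joint 5 to 90.7 in STING-MSC joint 3, and Slfn8 from 361 to 857 in the same joints. Bst2, which tethers budding virions, and Rtp4, which binds viral RNA, were highest in STING-MSC joint 3, at 2529 and 696, and lowest in MSC joint 5, at 1154 and 281. Cmpk2, the mitochondrial nucleotide kinase beside Rsad2, had its highest value of 3308 in TLR3-MSC joint 1.

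Parp9, Parp14 and Dtx3l, which modify proteins with ADP-ribose and ubiquitin during interferon signalling, were all highest in STING-MSC joint 3, at 1441, 2819 and 1681 normalized counts. Of the other interferon-induced proteins, Ifi27, a small mitochondrial membrane protein, had normalized counts of 2660.2, 2286, 2479, 3176 and 2647 in control, 2588, 3188, 2457, 2332 and 2603 in MSC, 2874, 2383, 3125, 2848 and 2861 in TLR3-MSC, and 2584, 2644, 2403, 2393 and 1906 in STING-MSC joints. In 4 of 5 TLR3-MSC joints it was above every STING-MSC joint, and the remaining one, joint 2, lay within the STING-MSC range. The mean was 2386 ± 290.1 in STING-MSC and 2818 ± 269 in TLR3-MSC joints (SD, n = 5), a log2 fold change of -0.24 (SE 0.11, limma adjusted p = 0.890, exact permutation p = 0.0556). The other members of this role were the secreted glycoprotein Lgals3bp, the apoptosis-linked Xaf1, and Ifi35, Ifi44, Phf11d and Tor3a. Xaf1 and Ifi35 were highest in STING-MSC joint 3, at 426 and 665 normalized counts, and lowest in MSC joint 5, at 205 and 352. Phf11d was at 339.9 in STING-MSC joint 3 and 106 in STING-MSC joint 5. Lgals3bp and Tor3a peaked in control joints, at 4607 in joint 5 and 1264 in joint 4, and Ifi44 in TLR3-MSC joint 1 at 107. In MSC against control joints 6 of 7 genes of this role were lower, but 3 of 7 after quantile normalization and without control joint 4 or MSC joint 3, so the direction depended on the scaling and on single joints.

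**Figure D3:**
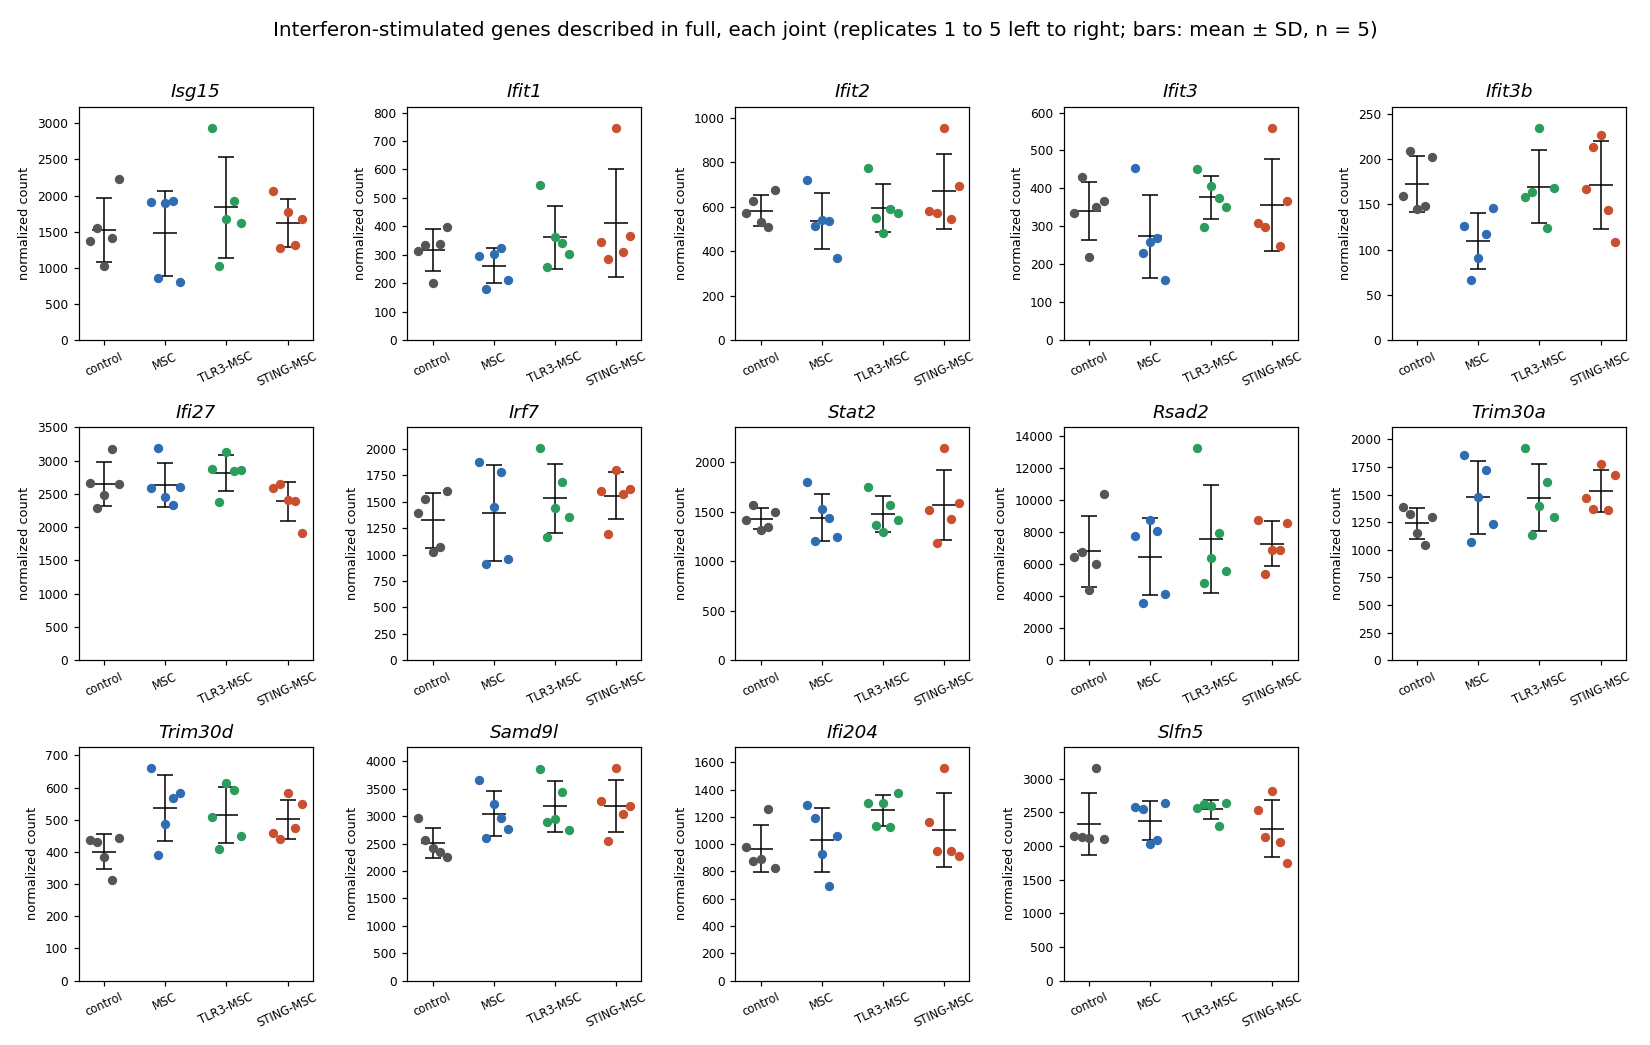
Normalized count (vertical axis, from 0) in each joint of the 14 members described in full, by group (horizontal axis; points are joints 1 to 5 from left to right, bars mean ± SD, n = 5). Ifit3b in MSC joints lies at 66.5 to 146, with 4 of 5 joints under the lowest control joint (145), and STING-MSC joint 3 carries the top Ifit1 value (747).

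Other genes of the pathway were taken from lists. The 17 type I interferon genes themselves were not analysed here. Of 9 receptor and signalling genes, limma called 0 at the FDR threshold in any comparison, and at an unadjusted p of at most 0.05 there was 1 higher in MSC (Irf3, all genes: 5.64%) and 3 higher in STING-MSC against control joints (Irf3, Jak1 and Tyk2, all genes: 6.54%). Against MSC joints 1 was lower in TLR3-MSC (Irf1, all genes: 1.99%) and 1 higher in STING-MSC (Jak1, all genes: 2.77%), and there were 0 in the rest. The count for MSC was 3 without MSC joint 2 and 0 without MSC joint 3, and that for STING-MSC over control 1 without STING-MSC joint 3 or 5. Against MSC joints, the 1 lower gene was 0 without MSC joint 1, 3 or 4 or TLR3-MSC joint 1, 2, 3 or 5, and the 1 higher gene 0 without MSC joint 4 or 5 or STING-MSC joint 1 or 5. In the rest, 1 gene was higher in TLR3-MSC than in control joints without TLR3-MSC joint 3, and 1 in STING-MSC than in TLR3-MSC joints without STING-MSC joint 1. Jak1, the receptor kinase, had normalized counts of 9165, 9008, 8827, 9195 and 9445 in control, 9657, 9347, 9778, 8886 and 8793 in MSC, 10392, 10073, 9640.2, 9522 and 9596 in TLR3-MSC and 10626, 9717, 9822, 10084 and 10481 in STING-MSC joints. Neither TLR3-MSC nor STING-MSC joints overlapped control, while MSC joints lay on both sides of the control range (all genes: 0.825% for TLR3-MSC, 2.17% for STING-MSC). The log2 fold changes were 0.11 in TLR3-MSC and 0.15 in STING-MSC joints (SE 0.05, limma adjusted p = 1.00 and 0.331, exact permutation p = 0.00794 in each). Tyk2, its partner kinase, had 1839, 1734, 1708, 1747 and 1741 in control, 2249, 1941, 2017, 1665 and 1610.3 in MSC, 2024, 1937, 1772, 2076 and 2062 in TLR3-MSC and 1930.1, 1865, 2166, 1904 and 2312 in STING-MSC joints. STING-MSC joints did not overlap control, TLR3-MSC joint 3 lay inside the control range, and MSC joints 1 to 3 were above every control joint with MSC joints 4 and 5 below. The log2 fold changes were 0.17 and 0.21 (SE 0.09), in the order TLR3-MSC and STING-MSC, with limma adjusted p of 1.00 and 0.372 and exact permutation p of 0.0159 and 0.00794.

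Of 13 sensors upstream of interferon, Cgas, the enzyme that makes the STING ligand, was higher by a log2 fold change of 0.45 in STING-MSC than in control joints (SE 0.20, limma adjusted p = 0.383, exact permutation p = 0.0159), at 254, 244, 275, 236 and 322 in control against 405, 287, 391, 334 and 411 normalized counts. MSC joints had 393, 279, 409.9, 368 and 174, and TLR3-MSC joints 1 and 4 had 411 and 332 with the other 3 inside the control range, so 3 MSC and 2 TLR3-MSC joints were also above every control joint. Myd88, an adaptor of Toll-like receptors, was at 1533, 1379.7, 1532, 1237 and 1173 in control and 1805, 1593, 1750.1, 1695 and 1569 in MSC joints, a log2 fold change of 0.30 (SE 0.10, limma adjusted p = 0.359, exact permutation p = 0.00794). TLR3-MSC joints, from 1269.5 to 1750.4, and STING-MSC joints, from 1323 to 1806, overlapped both. Of 8 negative regulators, 2 were higher and Socs3 was lower in STING-MSC than in control joints at unadjusted p (all genes: 6.54% and 5.69%), with a list median of 0.07. Socs3, which blocks cytokine receptor kinases, had a log2 fold change there of -0.90 (SE 0.37, limma adjusted p = 0.369, exact permutation p = 0.0159). Against MSC joints it was -1.04 (SE 0.37, limma adjusted p = 0.852, exact permutation p = 0.00794). Socs3 normalized counts were 778, 1340, 1539, 2571 and 724 in control and 974, 2938, 1026, 929 and 1779 in MSC joints. They were 710, 1426, 1162, 637 and 1883 in TLR3-MSC and 700, 723, 778, 606 and 548 in STING-MSC joints. Control joint 5 and TLR3-MSC joints 1 and 4 lay within the STING-MSC range. Of 27 further interferon-stimulated genes with values, Ifitm1 encodes a protein that restricts the entry of viruses into cells. It was higher by 0.61 in MSC than in control joints on the log2 scale (SE 0.15, limma adjusted p = 0.201, exact permutation p = 0.0159). MSC joints were at 822, 748, 664, 818 and 527 and control joints at 577, 460.3, 449, 342 and 527 normalized counts. It was also higher in STING-MSC than in control joints, by 0.47 (SE 0.15, limma adjusted p = 0.310, exact permutation p = 0.00794), at 615, 641, 698, 606 and 665 with no overlap (all genes: 2.17%). TLR3-MSC joints, at 521, 511, 449, 790.3 and 573, were above control by 0.27 (SE 0.15, limma adjusted p = 1.00, exact permutation p = 0.246). Of these, TLR3-MSC joint 4 alone was above every control joint. In limma, 0 genes of these 3 lists were called at the FDR threshold in any comparison. Against MSC joints, Ifitm1 was lower in TLR3-MSC by a log2 fold change of -0.34 (SE 0.15, limma adjusted p = 0.978, exact permutation p = 0.111). Its relative Ifitm2 was lower in STING-MSC than in MSC joints by a log2 fold change of -0.47 (SE 0.13, limma adjusted p = 0.594, exact permutation p = 0.00794), at 859, 1096, 1100.1, 1029 and 912 against 1417, 1555, 1260.6, 1298 and 1395 normalized counts, with no overlap (all genes: 1.05%). Control joints lay across both ranges, at 1161, 1010.0, 1389.9, 1326 and 883.

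Shares of all genes at an unadjusted p of at most 0.05 were 5.64% higher in MSC, 2.68% higher in TLR3-MSC, and 6.54% higher and 5.69% lower in STING-MSC against control, and 1.99% lower in TLR3-MSC and 2.17% lower in STING-MSC against MSC joints. Beside these, the 13 sensors had 1 gene higher in MSC than in control joints (3 without MSC joint 5) and 1 in STING-MSC joints (0 without control joint 1, 2 or 4 or STING-MSC joint 3 or 5). The 8 negative regulators had 1 higher in MSC (2 without control joint 1, 0 without control joint 5) and 1 in TLR3-MSC joints (0 without control joint 1, 2, 4 or 5 or TLR3-MSC joint 2, 4 or 5). In STING-MSC joints 2 of them were higher than in control joints (1 without control joint 3, 4 or 5 or STING-MSC joint 3, and 0 without STING-MSC joint 4 or 5) and 1, Socs3, was lower (0 without control joint 3 or 4 or STING-MSC joint 5). Of the 27 further genes, Ifitm1 and Ifitm2 were higher in MSC (2 genes, 6 without MSC joint 2, 5 without MSC joint 5, and 1 without control joint 1, 2 or 5 or MSC joint 1) and 3 in STING-MSC than in control joints (Ifitm1, Helz2 and Znfx1, 1 without control joint 3 or STING-MSC joint 1, 3 or 5). Against MSC joints, 1 regulator (Socs3) and 1 further gene (Ifitm2) were lower in STING-MSC joints, 2 of each without STING-MSC joint 3. The 1 further gene lower in TLR3-MSC (Ifitm1) was 2 without MSC joint 5 and 0 without MSC joint 1 or 4 or TLR3-MSC joint 1, 2 or 3.

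Of 14 genes best known for induction by interferon gamma, those with the smallest p had their highest values in STING-MSC joint 3. Cxcl9, a chemokine that draws T cells, was at 101.0, 254, 2853, 224 and 193 normalized counts in STING-MSC joints 1 to 5, and between 67.2 and 376 in the other groups. Igtp, an immunity-related GTPase, was at 1061, 1268, 3839.5, 1111 and 1243 in STING-MSC joints. Joint 3 was the highest in both, and the other STING-MSC joints lay among those of the other groups. The list had a median log2 fold change of 0.22 against control, 0.32 against MSC and 0.30 against TLR3-MSC joints, with 0 genes called in limma and 0 at an unadjusted p of at most 0.05. Without STING-MSC joint 3 these medians were -0.07, -0.06 and 0.01. Leaving out control joint 4 gave 0.12 against control, and leaving out STING-MSC joint 1 gave 0.35 against control and 0.45 against TLR3-MSC joints. Against TLR3-MSC joints 1 gene reached that unadjusted p without TLR3-MSC joint 1, STING-MSC joint 1 or STING-MSC joint 4.

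Markers of cell types were read beside these results, as fewer cells of a type and less RNA per cell cannot be told apart in bulk tissue. Normalized counts of 9 macrophage and monocyte markers (Ly6c2 the most abundant, 0 markers at 0) were summed. The sum was highest in STING-MSC joint 3 at 65412 and MSC joint 1 at 64825. TLR3-MSC joint 1 ranked 4 of the 20 joints at 58309, MSC joint 2 ranked 13 at 51942 and MSC joint 5 ranked 19 at 47149. Control joint 2 had the lowest sum, 44982, with an average over the 44 members of 9.38. Sums of 8 neutrophil markers (S100a9 the most abundant, 0 at 0) averaged 441416 ± 101620.0 in control, 657119 ± 157221 in MSC, 541190.0 ± 102689 in TLR3-MSC and 639864 ± 102257 in STING-MSC joints (SD, n = 5). Without adjustment, at p of at most 0.05, 5 of these 8 were higher in MSC than in control joints (all genes: 5.64%). In STING-MSC joints 6 were higher than in control joints (all genes: 6.54%), and limma called 0 in both comparisons. The count for MSC was 8 without MSC joint 2 or 5 and 3 without MSC joint 4. For STING-MSC it was 3 without control joint 3 or STING-MSC joint 4, and 2 without control joint 4 or 5 or STING-MSC joint 3 or 5. Skeletal muscle markers, with Myh4 the most abundant, ranged from 753635 in MSC joint 1 to 3230087 in STING-MSC joint 2, and the sum of 6 B lineage markers was highest in STING-MSC joint 3 at 26511. The list for plasmacytoid dendritic cells, the main interferon producers in blood, was led by Cox6a2, which muscle also expresses. Of the 5 genes in this list, 2 were higher in STING-MSC than in control joints at an unadjusted p of at most 0.05 (all genes: 6.54%), with 0 called at the FDR threshold. These were Siglech, with means of 781 and 547 normalized counts (log2 fold change 0.62, SE 0.29, limma adjusted p = 0.407, exact permutation p = 0.119), and Ccr9, with means of 214 and 131 (log2 fold change 0.70, SE 0.32, limma adjusted p = 0.390, exact permutation p = 0.135). Over the 20 joints Siglech ranged from 219 to 1047, with the top value in MSC joint 1, and the groups overlapped. Without control joint 4 the log2 fold changes of Siglech and Ccr9 were 0.32 and 0.45, and the count of 2 was 0 without control joint 4 or STING-MSC joint 2, 3, 4 or 5 and 1 without control joint 5. Of 5 endothelial markers (Pecam1 the most abundant), 3 were lower in STING-MSC than in control joints at that unadjusted p (all genes: 5.69%), and 5 without control joint 1 or STING-MSC joint 2. In TLR3-MSC joints 1 was lower than in control joints (all genes: 0.906%), and 0 to 4 in fits without single joints. The endothelial sums were 9629 ± 1874 in control, 8259 ± 2150.0 in MSC, 7449 ± 1610.0 in TLR3-MSC and 6695 ± 1027 in STING-MSC joints (SD, n = 5). At the same unadjusted p, 1 macrophage marker was higher in MSC (all genes: 5.64%) and 2 in STING-MSC than in control joints (all genes: 6.54%). Against MSC joints, 1 was higher in STING-MSC joints (all genes: 2.77%). Compared with control joints, 1 of 6 bone markers was lower in STING-MSC (all genes: 5.69%) and 1 of 5 adipocyte markers higher in TLR3-MSC joints (all genes: 2.68%). In limma, 0 markers of any list were called at the FDR threshold. In fits without single joints these macrophage counts came down to 0, 1 and 0, and the bone and adipocyte counts ran from 0 to 3 and from 0 to 5. Synovial fibroblast markers, led by Prg4, summed to 318701 ± 157453 in control, 222707 ± 166644 in MSC, 314860.0 ± 80812 in TLR3-MSC and 150939 ± 65648 in STING-MSC joints (SD, n = 5). Erythroid markers, led by Hbb-bs, had their lowest sums in MSC joint 5 (870756) and MSC joint 2 (948664), which were also the joints with the lowest averages over the 44 members. The part of these cell types in the interferon-stimulated gene values was not tested.

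The promoters were read for elements known from interferon-responsive genes, in 300 bases around the start, 250 before and 50 after, from RefSeq on GRCm38.p6. A promoter was held for 32 of the 44 members. The core of the interferon-stimulated response element, 4 bases GAAA, any 2 bases and GAAA again, on either strand, was in 17 of 32 members (53.1%) and in 4.0% of all 27025 genes. The gamma-activated sequence TTCNNNGAA, which reads the same on both strands, was in 5 of 32 members (15.6%) and in 9.6% of all genes, and 3 members held both. Windows of named members follow, shown because these genes are the ones described in full, as 5′ to 3′ sequence of the gene's strand with the matched letters in capitals. They were placed on GRCm39 by exact match. Isg15 (chr4:156285320-156285365, minus strand) holds 3 overlapping matches, 78 to 57 bases before its start. The Trim30a window (chr7:104114415-104114448, minus strand) has the same letters as that of Trim30d (chr7:104157076-104157109, minus strand), and the Ifit3 window (chr19:34560761-34560828, plus strand) the same as that of Ifit3b (chr19:34585157-34585224, plus strand). The others were Stat2 (chr10:128106133-128106166, plus strand), Slfn5 (chr11:82842761-82842794, plus strand), Rsad2 (chr12:26506550-26506583, minus strand) and Ifit1 (chr19:34618173-34618225, plus strand). Samd9l, Ifit2 and Irf7 had no match to the core in these windows. No promoter was held for Ifi27 or Ifi204, so neither was searched. A match describes letters and does not show that a factor binds.
Isg15: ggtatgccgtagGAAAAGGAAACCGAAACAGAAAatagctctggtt
Trim30a and Trim30d: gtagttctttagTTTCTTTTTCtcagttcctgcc
Stat2: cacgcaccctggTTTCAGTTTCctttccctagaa
Slfn5: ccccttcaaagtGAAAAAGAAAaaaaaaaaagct
Rsad2: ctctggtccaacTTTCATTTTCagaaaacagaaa
Ifit3 and Ifit3b: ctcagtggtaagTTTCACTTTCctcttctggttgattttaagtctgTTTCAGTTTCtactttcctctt
Ifit1: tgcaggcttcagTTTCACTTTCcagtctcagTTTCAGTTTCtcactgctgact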

How the data were processed

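Polyadenylated RNA of 20 knee joints was sequenced. Per the labels and methods, the authors aligned reads with STAR 2.7.3a to GRCm39, counted them per gene with HTSeq and divided them by median-ratio size factors. The deposited values are these normalized counts, a signal in reads scaled for depth. Strand of counting and any low-count filter were not stated, and the lowest mean in the table was 9.4. Whole reads were recovered within 0.1 read for 99.8 to 99.9% of values. Differences were tested with limma 3.58.1 (R 4.3.3, trend) on log2(normalized count + 1) over all 20 joints in 4 groups, with Benjamini-Hochberg adjustment over 14793 genes, after a test on simulated data. Recovered reads were tested with edgeR 4.0.16 and DESeq2 1.42.0. Exact two-sided permutation tests compared 5 with 5 joints. Described in full were the 3 members with the smallest p per comparison, the 5 smallest in the F test, and Irf7, Isg15, Ifit3, Stat2 and Rsad2. The members and lists were chosen with earlier results of these data known. The replicates were separate mice.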

Additional observations from a re-analysis of the deposited data

Results flagged for a closer look

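For 14 described members and the mean over the 44, in 4 groups each (60 groups of 5 joints), the gap between an end joint and its nearest neighbour was divided by the range of the group, and 3 groups exceeded the critical value of 0.71. Chance flags about 1 in 20 groups. Slfn5 in control joints had a ratio of 0.967 for its highest joint, replicate 4 (3155 normalized counts against 2112 to 2147 in the others). Ifit1 in STING-MSC joints had a ratio of 0.824 for replicate 3 (747 against 286 to 367). Slfn5 in TLR3-MSC joints had a ratio of 0.815 for its lowest joint, replicate 4 (2294 against 2571 to 2635). What set these joints apart was not tested.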

How the results depend on the processing

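In limma, edgeR, DESeq2, both other pseudocounts, a minimum mean of 20, quantile normalization, fits of the 2 compared groups alone and every fit without 1 joint, 0 of 44 members passed the FDR threshold in each comparison, and in the F test for all of these but the fits of 2 groups, which have none. Members at unadjusted p moved as follows, and the cause was not tested. STING-MSC minus control (2) had 5 with the 2 groups alone and 1 in edgeR. TLR3-MSC minus MSC (2) had 1 with the 2 groups alone, after quantile normalization, in edgeR and in DESeq2. STING-MSC minus MSC (2) had 1 with the 2 groups alone and after quantile normalization. The F test (3) had 1 after quantile normalization. Leaving out the 2 joints with the most genes at 0 (MSC 5 and STING-MSC 5), an alternative chosen after seeing the data, gave 1 in STING-MSC minus control, 1 in TLR3-MSC minus MSC, 1 in STING-MSC minus MSC and 0 in STING-MSC minus TLR3-MSC (1).

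Replicate numbers were not taken as pairs: correlations of deviations between same-numbered joints ran from -0.658 to 0.464, with means from -0.144 to 0.108. In TLR3-MSC minus MSC 4 of 5 such pairs were above 0.1 (mean 0.0927). With the replicate block, members at unadjusted p were 5 in STING-MSC minus control, 1 in TLR3-MSC minus MSC and 0 in STING-MSC minus TLR3-MSC.

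Leaving out each joint in turn gave 2 to 5 members at unadjusted p in MSC minus control (5 without MSC 2), 1 to 4 in TLR3-MSC minus control (1 without TLR3-MSC 3), 1 to 4 in STING-MSC minus control (4 without control 1; 1 without control 3, control 4 or STING-MSC 5), 1 to 3 in TLR3-MSC minus MSC (1 without MSC 2, 3, 4 or 5 or TLR3-MSC 1, 3, 4 or 5), 1 to 4 in STING-MSC minus MSC (4 without MSC 1; 1 without MSC 2, MSC 5 or STING-MSC 3), 0 to 3 in STING-MSC minus TLR3-MSC (3 without STING-MSC 3; 0 without TLR3-MSC 1, 3, 4 or 5 or STING-MSC 5) and 1 to 3 in the F test (1 without control 2, 3 or 4). The median member log2 fold change ran from -0.05 to 0.11 in MSC minus control, 0.05 to 0.21 in TLR3-MSC minus control, 0.06 to 0.22 in STING-MSC minus control, 0.002 to 0.18 in TLR3-MSC minus MSC, -0.01 to 0.20 in STING-MSC minus MSC and -0.07 to 0.13 in STING-MSC minus TLR3-MSC, so its sign turned without single joints in the comparisons whose range includes 0, and the cause was not tested. For the 3 members with the smallest p in each comparison, 0 of 342 values under alternatives changed sign, 47 lost and 8 gained an unadjusted p of at most 0.05. These members were picked by their p in the same joints, so the count cannot show how stable the directions of the other members are. Irf7, Isg15, Stat2 and Rsad2 are not in this count, and each turned in at least 1 comparison without some joint. Counting error weighs most on the members with few reads, such as Mx2, at 12.2 normalized counts in MSC joint 5.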
